A study of Mus musculus with 23 samples.

Results

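Matrix metalloproteinases (MMPs) are zinc-dependent proteases that cut collagens and other extracellular matrix proteins, and TIMP1 is a tissue inhibitor that binds and blocks many of them. Most MMPs are made as inactive proenzymes that other proteases must cleave, so a transcript level is not an enzyme activity. In skin wounds they are known for loosening the matrix in front of migrating keratinocytes and infiltrating leukocytes, and several are made at high levels only after injury. Mmp2, Mmp3, Mmp8, Mmp9, Mmp10, Mmp12, Mmp13, Mmp14 and Timp1 are described here. They were chosen by symbol, as the highest-mean row annotated to each, and are 9 of the 19938 genes tested. Each of the 9 had exactly 1 row, and all are named whatever their values.

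Ear pinna RNA of 4-week-old female mice was hybridized to Affymetrix Mouse Gene 1.0 ST arrays. Rhbdf2+/+ mice of strain C57BL/6J, called wild type, were compared with Rhbdf2cub/cub mice of strain B6.Cg-Rhbdf2cub/J, called cub. The cub allele affects the gene of iRhom2, a partner of the membrane protease ADAM17, and was carried in the germ line, so every cell of those mice had it. Wounded ears had a 2-mm hole through the centre, and a 3-mm biopsy then took the 1-mm rim at 15 min, 2 h or 24 h. Unwounded control ears were taken at 0 h, and no punch size was given for them, so the piece of tissue may differ too. Each of the 8 groups had 3 arrays, each labelled a biological replicate, except cub at 15 min, which had 2, for 23 arrays in all.

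Values are log2 RMA values, with a spread given as SD between arrays of a group. A difference of 1 is a 2-fold change, and differences are cub minus wild type or wounded minus 0 h, with their standard error (SE). A gene was called changed at an adjusted p under 0.05 in limma. Array medians lay between 6.37 and 6.46, and no columns were identical. Rhbdf2 itself was at 8.70 ± 0.06 in wild type and 9.11 ± 0.04 in cub at 0 h (SD, n = 3 each). The place of its probes relative to the mutation was not examined, so this checks nothing about the genotype labels. A log2 value depends on the probes of the gene, so levels of different genes were not set against each other. The tissue was bulk, and fewer cells of a type cannot be told apart from less RNA per cell.

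The genes of Mmp3, Mmp8, Mmp10, Mmp12 and Mmp13 lie in 1 cluster on mouse chromosome 9, within 295973 bases in the GRCm38.p6 assembly. The order there is Mmp13, Mmp12, Mmp1b, Mmp3, Mmp1a, Mmp10, Mmp8, Mmp27, Mmp20 and Mmp7. RefSeq promoter windows of that assembly matched 7 of the 9 genes. Mmp2 and Mmp9 had none. The bases before the annotated start are shown for 5 genes whose transcripts rose at 24 h in both genotypes, to set the promoters that held an AP-1 match beside those that did not. AP-1 is the Fos and Jun dimer that is known to drive several MMP genes in response to cytokines and growth factors. Capitals mark matches to TGANTCA on either strand, and each line is the plus strand, 5′ to 3′, ending at the base before the start.
Mmp13, chr9:7272404-7272513: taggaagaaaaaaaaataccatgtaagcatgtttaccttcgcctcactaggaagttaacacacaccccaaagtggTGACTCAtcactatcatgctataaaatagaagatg
Mmp3, chr9:7445712-7445821: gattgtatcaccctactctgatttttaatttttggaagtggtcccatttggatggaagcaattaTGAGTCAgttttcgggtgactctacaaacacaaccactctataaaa
Mmp10, chr9:7502232-7502341: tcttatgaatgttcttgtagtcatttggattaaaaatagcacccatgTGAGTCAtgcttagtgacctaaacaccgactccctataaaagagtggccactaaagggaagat
Mmp8, chr9:7558319-7558428: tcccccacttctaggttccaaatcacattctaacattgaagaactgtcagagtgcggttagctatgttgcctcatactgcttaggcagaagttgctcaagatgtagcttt
Timp1, chrX:20870056-20870165: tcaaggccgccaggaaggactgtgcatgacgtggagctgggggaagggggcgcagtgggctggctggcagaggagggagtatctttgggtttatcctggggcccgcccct

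Within 250 bases before the start, the AP-1 match began 35 bases before the Mmp13 start, 46 before Mmp3 and 63 before Mmp10. Of 2 annotated Mmp12 starts, the second had a match 44 bases before it and the first had none. No match was found before Mmp8, Mmp14 or Timp1. In the same 250 bases, 6.75% of 32851 windows and 7.82% of 27025 genes held the AP-1 letters. The ETS letters AGGAAG, searched on both strands, were found before Mmp3, Mmp8, the first Mmp12 start, Mmp14, at 2 places before Mmp13 and at 2 before Timp1, and in 29.5% of all windows. A match describes these letters only. In the 2 windows that held both, those of Mmp3 and Mmp13, the promoter map shows the AP-1 match nearer to the start than any ETS match.

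**Figure D1:**
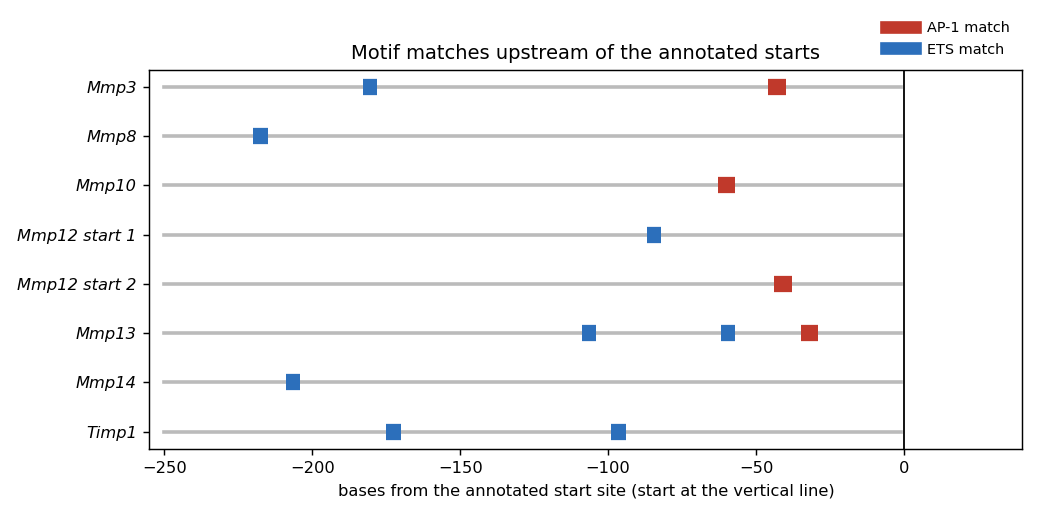
Motif matches in the 250 bases before each annotated start (grey lines, 7 genes with 8 starts), plotted as bases from the start site. Red blocks are AP-1 matches, 35 to 63 bases before the starts of Mmp13, Mmp12 (start 2), Mmp3 and Mmp10, and blue blocks are ETS matches.

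The first comparison asked how each transcript changed after the punch. At 24 h, 7 of the 9 transcripts had risen in wild type and 7 in cub, and 6 of these were the same in both genotypes: Mmp3, Mmp8, Mmp9, Mmp10, Mmp13 and Timp1. Of all genes, 42.8% were called at 24 h in wild type and 46% in cub, in either direction. The calls higher were 20.5% and 21.1%. The median 24-h difference of the 9 transcripts was 2.33 in wild type and 2.84 in cub, against -0.02 and -0.003 over all genes. At 15 min no transcript of the 9 was called in either genotype by limma, where 0.0351% of genes were called in wild type and 0.0251% in cub. At an unadjusted p under 0.05 the counts at 15 min were 0 of 9 in wild type and 1 of 9 in cub. At 2 h, 2 of the 9 had risen in wild type (Mmp8 and Timp1) and 4 in cub (Mmp3, Mmp8, Mmp14 and Timp1). Of all genes, 7.97% were called at 2 h in wild type and 11.9% in cub, and 3.98% and 7.66% were called higher. The cub split at 2 h was 1528 genes higher and 853 lower, or 1406 and 1492 with the arrays quantile normalized. All wounded times of a genotype share its 0 h arrays.

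**Figure D2:**
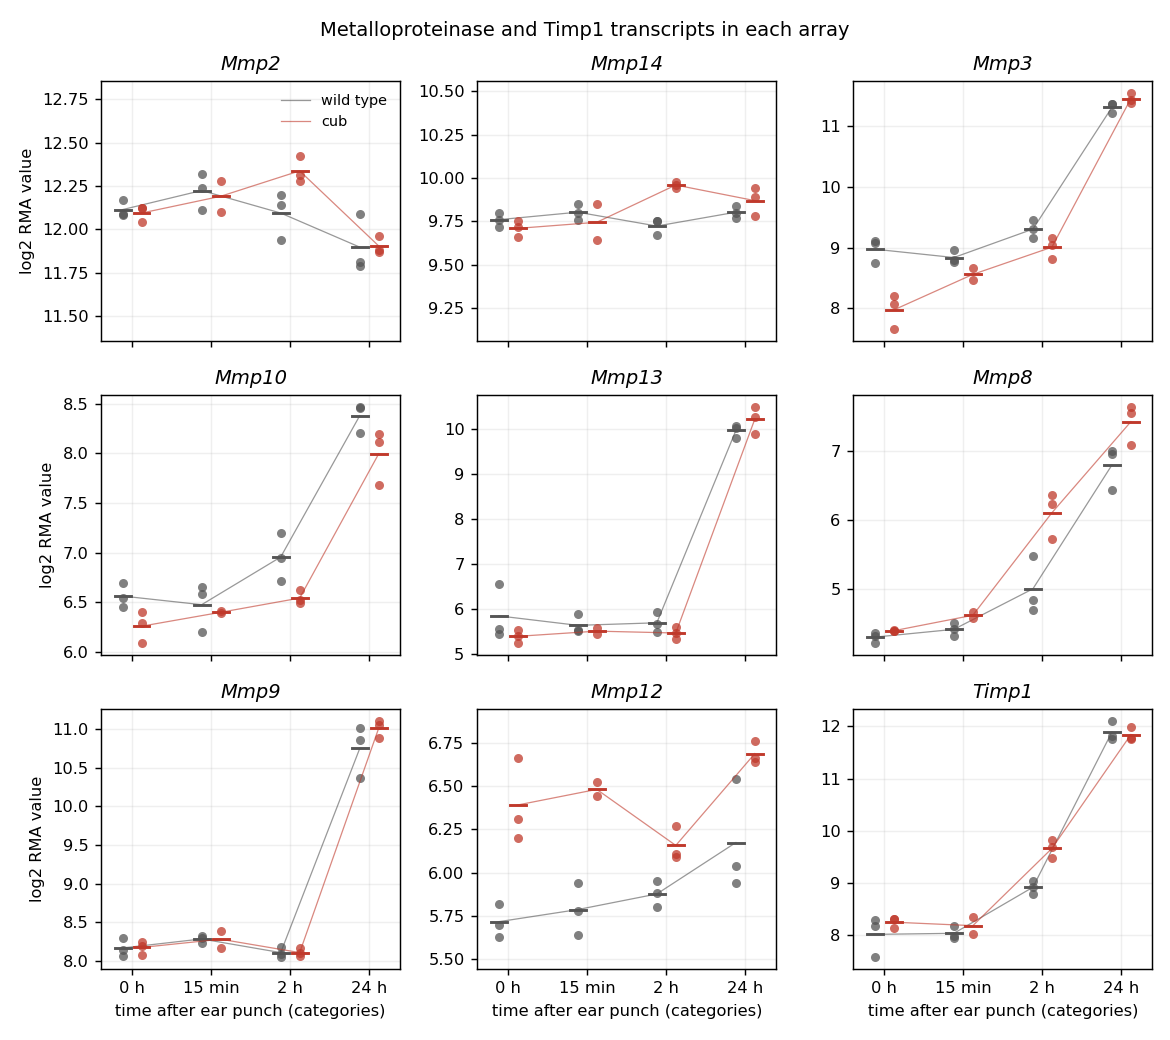
Log2 RMA value of each of the 9 transcripts (1 panel each) in every array at 0 h, 15 min, 2 h and 24 h after the ear punch. Points are arrays, short bars are group means, grey is wild type (n = 3 per time) and red is cub (n = 3, or 2 at 15 min). The 24-h arrays stand above all others for Mmp3, Mmp8, Mmp9, Mmp10, Mmp13 and Timp1, and the axes differ between panels.

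Mmp13, a collagenase of wound-edge keratinocytes, fibroblasts and cartilage, had the largest rise of the 9. In wild type it was at 5.45, 6.55 and 5.56 at 0 h, 5.89, 5.53 and 5.51 at 15 min, 5.50, 5.93 and 5.67 at 2 h, and 10.07, 9.80 and 10.02 at 24 h. In cub the values were 5.25, 5.41 and 5.54 at 0 h, 5.58 and 5.45 at 15 min, 5.47, 5.61 and 5.34 at 2 h, and 10.49, 9.89 and 10.27 at 24 h. All 17 arrays before 24 h thus lay at or below 6.55 and all 6 at 24 h at or above 9.80. The 24-h difference was 4.11 ± 0.20 in wild type (17.3-fold, limma adjusted p = 8.83e-13) and 4.82 ± 0.20 in cub (28.2-fold, adjusted p = 4.72e-14). It ranked 23rd and 20th among all genes. At 2 h the difference was -0.15 (95% confidence interval -0.58 to 0.27) in wild type and 0.07 (-0.35 to 0.50) in cub. The wild-type array at 6.55 lay apart from the other 2 at 0 h, and without it the 24-h difference was 4.46 in wild type, the highest value over the alternatives.

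Mmp9, gelatinase B, which neutrophils, macrophages and migrating keratinocytes make, followed the same late course. In wild type it was between 8.05 and 8.32 in the 9 arrays up to 2 h and at 10.37, 11.02 and 10.86 at 24 h. In cub it was between 8.06 and 8.39 in the 8 earlier arrays and at 11.05, 10.88 and 11.11 at 24 h. The groups at 24 h did not overlap any earlier group. The 24-h difference was 2.58 ± 0.11 in wild type (5.99-fold, limma adjusted p = 1.18e-13) and 2.84 ± 0.11 in cub (7.16-fold, adjusted p = 1.65e-14). At 2 h it was -0.06 (95% interval -0.29 to 0.17) in wild type and -0.07 (-0.30 to 0.17) in cub.

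Timp1, the inhibitor, had already risen at 2 h. Its values in wild type were 7.58, 8.17 and 8.29 at 0 h, 8.17, 7.95 and 7.98 at 15 min, 8.79, 8.93 and 9.03 at 2 h, and 12.11, 11.81 and 11.76 at 24 h. In cub they were 8.13, 8.30 and 8.31 at 0 h, 8.02 and 8.34 at 15 min, 9.68, 9.82 and 9.48 at 2 h, and 11.76, 11.78 and 11.99 at 24 h. In both genotypes every 2-h array lay above every earlier array and below every 24-h array. The 2-h difference was 0.90 ± 0.14 in wild type (limma adjusted p = 0.000221) and 1.41 ± 0.14 in cub (adjusted p = 4.77e-07). At 24 h it was 3.88 ± 0.14 in wild type (14.7-fold) and 3.60 ± 0.14 in cub (12.1-fold), with adjusted p = 8.57e-15 and 1.65e-14. Timp1 lies within the span of Syn1, a neuronal gene. Syn1 changed by 0.00 ± 0.07 in wild type and 0.11 ± 0.07 in cub at 24 h, without a call.

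Mmp8, the collagenase stored in neutrophil granules, rose at both 2 h and 24 h in both genotypes. In wild type it was at 4.32, 4.21 and 4.36 at 0 h, 4.31, 4.50 and 4.42 at 15 min, 5.48, 4.83 and 4.69 at 2 h, and 6.96, 7.01 and 6.44 at 24 h. In cub it was at 4.39, 4.38 and 4.40 at 0 h, 4.66 and 4.57 at 15 min, 6.23, 5.72 and 6.37 at 2 h, and 7.09, 7.65 and 7.56 at 24 h. The 2-h values of both genotypes lay above all of their 0 h values. The 2-h difference was 0.70 ± 0.18 in wild type (limma adjusted p = 0.0194) and 1.72 ± 0.18 in cub (3.29-fold, adjusted p = 1.24e-06). The wild-type call at 2 h was lost without 2-h replicate 1 or 0-h replicate 2, where the difference stayed between 0.46 and 0.89 over all alternatives and adjusted p reached 0.14. At 24 h the difference was 2.51 ± 0.18 in wild type (5.68-fold) and 3.04 ± 0.18 in cub (8.24-fold).

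Mmp3 and Mmp10, the stromelysins, cut many matrix proteins and can activate other proMMPs. Mmp3 in wild type was at 8.74, 9.07 and 9.11 at 0 h, 8.96, 8.79 and 8.76 at 15 min, 9.15, 9.31 and 9.45 at 2 h, and 11.35, 11.21 and 11.35 at 24 h. In cub it was at 8.20, 7.66 and 8.07 at 0 h, 8.46 and 8.66 at 15 min, 9.15, 8.82 and 9.05 at 2 h, and 11.54, 11.38 and 11.42 at 24 h. The cub arrays began below all wild-type arrays and ended above them. The 24-h difference was 2.33 ± 0.12 in wild type (5.03-fold, limma adjusted p = 2.07e-12) and 3.47 ± 0.12 in cub (11.1-fold, adjusted p = 2.61e-15). At 2 h it was 0.33 ± 0.12 in wild type (adjusted p = 0.11) and 1.03 ± 0.12 in cub (2.04-fold, adjusted p = 4.68e-06).

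Mmp10 in wild type was at 6.45, 6.54 and 6.70 at 0 h, 6.65, 6.58 and 6.20 at 15 min, 6.72, 6.95 and 7.20 at 2 h, and 8.46, 8.47 and 8.21 at 24 h. In cub it was at 6.29, 6.09 and 6.40 at 0 h, 6.39 and 6.41 at 15 min, 6.49, 6.62 and 6.52 at 2 h, and 8.20, 8.11 and 7.68 at 24 h. The 24-h arrays stood above all earlier ones in each genotype. The 24-h difference was 1.82 ± 0.14 in wild type (3.52-fold, limma adjusted p = 4.75e-10) and 1.74 ± 0.14 in cub (3.33-fold, adjusted p = 6.02e-10). At 2 h Mmp10 was not called, with 0.39 ± 0.14 in wild type (adjusted p = 0.0832) and 0.28 ± 0.14 in cub (adjusted p = 0.204). Mmp3 and Mmp10 are close relatives by sequence, as are Mmp1a and Mmp1b, and probes that could read both were not examined here.

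Mmp12, the macrophage elastase, moved little with wounding. It rose in wild type by 0.46 ± 0.12 at 24 h (1.37-fold, limma adjusted p = 0.00435). In cub the 24-h difference was 0.30 ± 0.12 (adjusted p = 0.0555, 95% interval 0.04 to 0.55).

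Mmp14, the membrane-anchored collagenase that activates proMMP2, and Mmp2, gelatinase A of fibroblasts, stayed within a narrow range. Mmp14 lay between 9.64 and 9.98 in all 23 arrays. It rose in cub by 0.25 ± 0.06 at 2 h (1.19-fold, limma adjusted p = 0.00484) and by 0.16 ± 0.06 at 24 h (adjusted p = 0.0239). The 24-h call was lost after quantile normalization, in a fit of only the groups compared, and without cub 24-h replicate 1 or 3 or cub 0-h replicate 1. In wild type the Mmp14 differences were -0.04 (95% interval -0.15 to 0.08) at 2 h and 0.04 (-0.07 to 0.16) at 24 h. Mmp2 lay between 11.79 and 12.42. It fell in wild type by 0.22 at 24 h (SE 0.08, adjusted p = 0.0342), a call that was lost without 24-h replicate 1 or 3, without any one of the 0-h arrays, with array weights and in a fit of only the groups compared. In cub it fell by 0.43 from 2 h to 24 h (SE 0.08, adjusted p = 0.000129).

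**Figure D3:**
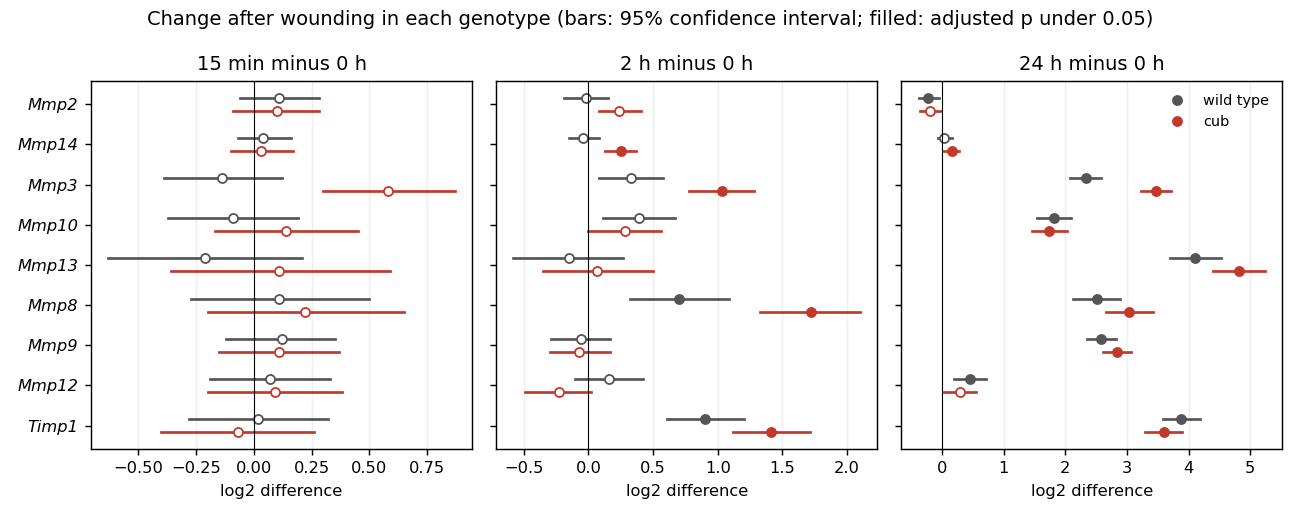
Log2 difference from 0 h at 15 min, 2 h and 24 h for the 9 transcripts in wild type (grey) and cub (red), with 95% confidence intervals. Filled points have an adjusted p under 0.05: none at 15 min, Mmp8 and Timp1 in both genotypes at 2 h with Mmp3 and Mmp14 in cub, and 7 higher per genotype at 24 h, with Mmp2 lower in wild type. The axes differ between panels.

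From 2 h to 24 h, 6 of the 9 transcripts rose in wild type and 7 in cub, where 41.5% and 42.2% of all genes were called either way and 21.1% and 18.8% higher. Mmp13 changed by 4.26 ± 0.20 and 4.74 ± 0.20 in this step, and Mmp9 by 2.64 ± 0.11 and 2.91 ± 0.11, in wild type and cub. Timp1 changed by 2.98 ± 0.14 in wild type and 2.18 ± 0.14 in cub. Mmp12 rose in cub by 0.53 ± 0.12 from 2 h to 24 h (limma adjusted p = 0.00126). Mmp14, called at 2 h in cub, differed by -0.09 ± 0.06 in this step (adjusted p = 0.228).

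The second comparison set cub against wild type at each time. Before wounding, 2 of the 9 transcripts were called, where 5.25% of all genes were. That is 1047 genes, a count that ranged from 322, without cub 0-h replicate 2, to 1174 when 1 array was left out. Mmp3 was lower in cub, with a mean of 7.98 ± 0.28 beside 8.97 ± 0.20 in wild type (SD, n = 3 per group), and differed by -1.0 ± 0.12 (2-fold lower, limma adjusted p = 6.82e-05). Every cub array lay at or below 8.20 and every wild-type array at or above 8.74. Mmp12 was higher in cub by 0.67 ± 0.12 (1.59-fold, adjusted p = 0.0031).

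Mmp12 and Mmp8 were the 2 of the 9 whose genotype groups did not overlap at any time, with cub above wild type. For Mmp8 the nearest arrays at 0 h were 4.38 and 4.36, and the difference was 0.09 ± 0.18 (limma adjusted p = 0.871). At 15 min it was 0.2 ± 0.21 (adjusted p = 0.564), and values this low cannot be told from background. The share of genes separated at every time was not counted. In wild type Mmp12 was at 5.70, 5.63 and 5.82 at 0 h, 5.94, 5.64 and 5.78 at 15 min, 5.95, 5.80 and 5.88 at 2 h, and 6.54, 5.94 and 6.04 at 24 h. In cub it was at 6.20, 6.66 and 6.31 at 0 h, 6.52 and 6.44 at 15 min, 6.09, 6.27 and 6.11 at 2 h, and 6.66, 6.64 and 6.76 at 24 h. Mmp12 thus stayed higher in every cub array than in the wild-type arrays of the same time. Such a separation with cub higher was found in 11.3% of genes at 0 h, 22.4% at 15 min, 13.6% at 2 h and 8.41% at 24 h. The difference was 0.69 ± 0.14 at 15 min (limma adjusted p = 0.0119), 0.28 ± 0.12 at 2 h (adjusted p = 0.242, 95% interval 0.02 to 0.54) and 0.51 ± 0.12 at 24 h (adjusted p = 0.016). Mmp12 was the only 1 of the 9 called at 15 min, where 3.45% of genes were called, and the call was lost without cub replicate 3 (adjusted p = 0.0938). The 24-h call was lost in a fit of only the groups compared and without wild-type replicate 2 or 3 or cub replicate 3, where adjusted p reached 0.107.

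Macrophage and monocyte markers moved with the Mmp12 difference at some times and not at others. At 0 h 3 of the 11 tested were higher in cub, among them Adgre1 by 0.62 and Cd163 by 0.57, and none was lower. The mean level over the 11 markers was 7.55 in wild type (range 7.47 to 7.60 over arrays) and 7.83 in cub (7.61 to 8.05). At 15 min 0 of the 11 were called, with means of 7.86 and 7.94, while Mmp12 differed by 0.69. At 2 h the marker means were 7.67 (7.43 to 7.86) and 8.08 (7.99 to 8.17), without overlap. Mmp12 differed by only 0.28 at that time, without a call. At 24 h 2 of the 11 were higher in cub, Chil3 by 1.46 and Ccr2 by 0.57, with means of 9.0 (8.77 to 9.15) and 9.37 (9.24 to 9.61). Over all genes, 5.25% were called either way at 0 h, and 2.24% were called higher in cub at 24 h. Endothelial markers were also higher in cub at 0 h, in 4 of 7, with Cdh5 by 0.61 and means of 8.08 (8.03 to 8.17) and 8.45 (8.35 to 8.59). The part of these cells in the Mmp12 difference was not tested.

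At 2 h, 3 of the 9 transcripts were called, all higher in cub, where 4.41% of genes were called either way and 3.84% higher. Over all genes 765 were higher and 115 lower, a split that became 524 and 269 with the arrays quantile normalized and 591 and 177 with them median-centred. Mmp8 averaged 6.11 ± 0.34 in cub and 5.0 ± 0.42 in wild type (SD, n = 3 per group), so that it was higher by 1.11 ± 0.18 (2.15-fold, limma adjusted p = 0.00141). Timp1 was higher by 0.74 ± 0.14 (1.67-fold, adjusted p = 0.00362), and for both genes the lowest cub array stood above the highest wild-type array. Mmp14 was at 9.98, 9.94 and 9.96 in cub and at 9.75, 9.67 and 9.75 in wild type, a difference of 0.24 ± 0.06 (1.18-fold, adjusted p = 0.0186). The Mmp14 call was lost after quantile normalization, in a fit of only the groups compared, and without wild-type replicate 2 or cub replicate 1, with adjusted p up to 0.0972. Mmp2 stood at 12.42, 12.28 and 12.31 in cub and 12.20, 12.14 and 11.94 in wild type, without a call (0.24 ± 0.08, adjusted p = 0.0975). Mmp9 differed by 0.00 at this time (95% interval -0.23 to 0.23).

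Cell marker levels at 2 h stand beside these values, where 3.84% of all genes were called higher in cub. Some of these gaps were already present at 0 h. The 0-h means in wild type and cub were 8.08 and 8.45 for endothelial, 7.51 and 7.80 for mast cell and 7.55 and 7.83 for macrophage markers. For fibroblast markers they were 10.51 and 10.68, for neutrophil markers 5.77 and 5.73, for wound-edge keratinocyte markers 8.49 and 8.37, and for adipocyte markers 8.74 and 9.23. Of 13 neutrophil markers, 5 were higher in cub and none lower, among them Trem1 by 0.88 and Csf3r, the G-CSF receptor, by 0.66. The mean neutrophil level was 6.46 in wild type (6.28 to 6.61) and 6.88 in cub (6.78 to 6.96). The granule genes Mpo and Camp, named here after their values were seen, were at 5.87 and 5.64 in wild type and at 5.77 and 5.65 in cub. Of 10 fibroblast markers, 8 were higher in cub, with Col3a1 by 0.69 and Col1a1 by 0.55, and mean levels of 10.46 (10.32 to 10.54) and 10.89 (10.83 to 10.97). Of 8 mast cell markers, 6 were higher, with mean levels of 7.50 (7.20 to 7.73) and 8.10 (8.05 to 8.13). Of 11 macrophage markers, 5 were higher, with mean levels of 7.67 (7.43 to 7.86) and 8.08 (7.99 to 8.17). Of 7 endothelial markers, 5 were higher and none lower, with Emcn by 0.56 and Tek by 0.46, and mean levels of 8.13 (8.10 to 8.16) and 8.46 (8.40 to 8.51). Wound-edge keratinocyte markers had mean levels of 9.21 (9.08 to 9.27) in wild type and 9.47 (9.42 to 9.53) in cub. Adipocyte means went the other way, at 8.88 (8.70 to 9.05) and 8.44 (8.15 to 9.01), with overlap. The part of any of these cell types in the Mmp8, Timp1 or Mmp14 difference was not tested.

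At 24 h, 2 of the 9 transcripts were called, both higher in cub, where 5.68% of genes were called either way and 2.24% higher. Over all genes 447 were higher and 686 lower, and 599 and 556 with the arrays median-centred. One was Mmp12, above. The other was Mmp8, by 0.63 ± 0.18 (1.55-fold, limma adjusted p = 0.0471), a borderline call that held in 9 of 31 alternatives, with adjusted p between 0.0203 and 0.225. None of the transcripts Timp1, Mmp13, Mmp9 and Mmp3 was called between genotypes at 24 h. Timp1 differed by -0.05 (95% interval -0.35 to 0.25), Mmp13 by 0.25 (-0.17 to 0.68), Mmp9 by 0.26 (0.03 to 0.50) and Mmp3 by 0.14 (-0.11 to 0.40). These intervals allow differences of either sign for Timp1, Mmp13 and Mmp3. Of 13 neutrophil markers 2 were higher in cub at 24 h, Clec4e by 0.77 and Csf3r by 0.62, with mean levels of 8.59 (8.49 to 8.67) and 8.92 (8.74 to 9.14).

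**Figure D4:**
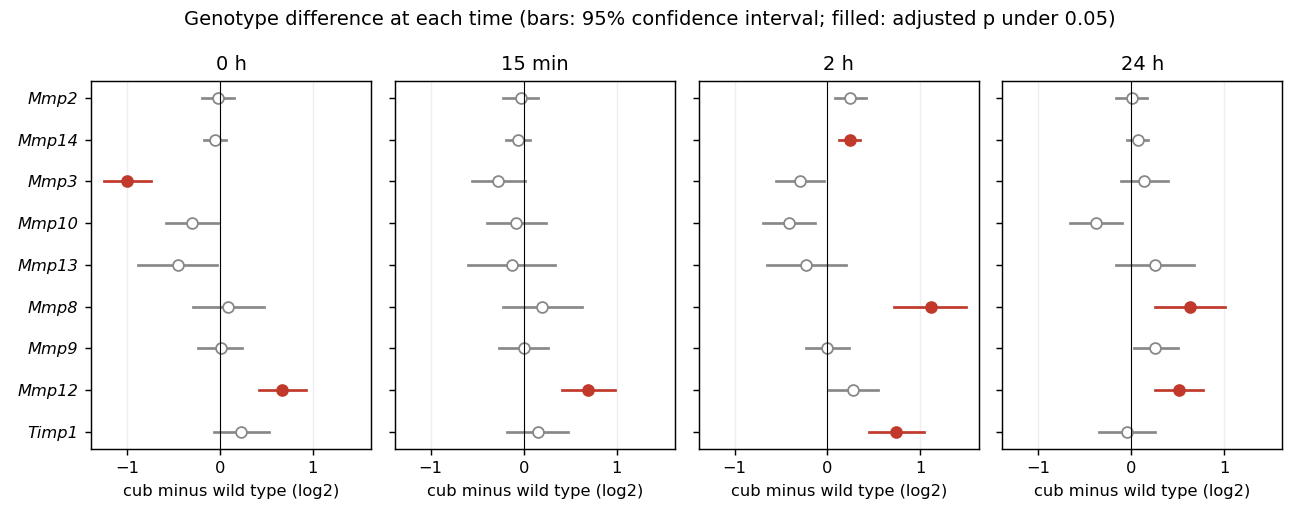
Cub minus wild type (log2) for the 9 transcripts at 0 h, 15 min, 2 h and 24 h, with 95% confidence intervals. Filled red points have an adjusted p under 0.05: Mmp3 (-1.0) and Mmp12 (0.67) at 0 h, Mmp12 (0.69) at 15 min, Mmp8 (1.11), Timp1 (0.74) and Mmp14 (0.24) at 2 h, and Mmp8 (0.63) and Mmp12 (0.51) at 24 h.

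Averaged over the 4 times, 5 of the 9 transcripts differed, where 18.3% of genes did. Mmp12 was higher in cub by 0.54 ± 0.06 (limma adjusted p = 8.04e-06), Mmp8 by 0.51 ± 0.09 (adjusted p = 0.000795) and Timp1 by 0.27 ± 0.07 (adjusted p = 0.0135). Mmp3 was lower, at -0.36 ± 0.06, and Mmp10 at -0.29 ± 0.07, with adjusted p of 0.00048 and 0.00526. The mean of Mmp10 was below that of wild type at all 4 times without a call at any single one, from -0.08 ± 0.15 at 15 min to -0.41 ± 0.14 at 2 h. The Timp1 call was lost without cub 15-min replicate 3 (adjusted p = 0.0566).

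The third comparison tested whether the wounding change itself differed between genotypes, as the difference of the 2 changes from 0 h. At 24 h, Mmp3 was the only 1 of the 9 called, where 1% of genes were. Its rise was larger in cub by 1.14 ± 0.17 (2.20-fold, limma adjusted p = 0.00162) and stayed between 0.98 and 1.26 in all 31 alternatives, called in each. The 2 arms of that difference are the lower cub level at 0 h (-1.0) and the 24-h levels, which differed by 0.14. Between these times, cub minus wild type for Mmp3 was -0.28 ± 0.14 at 15 min (adjusted p = 0.229). It was -0.3 ± 0.12 at 2 h (adjusted p = 0.2). The larger 24-h rise thus rests mainly on the 0-h arrays of unwounded ears. Why the genotypes differed there was not tested. For Mmp13 the difference of changes was 0.71 ± 0.29 (adjusted p = 0.334, 95% interval 0.11 to 1.30), and for Timp1 -0.28 ± 0.20 (adjusted p = 0.688, interval -0.70 to 0.14). At 2 h none of the 9 was called by limma, where 0.13% of genes were, although 6 of 9 had an unadjusted p under 0.05. The 3 with the smallest p were Mmp3 at 0.70 ± 0.17 (adjusted p = 0.132), Mmp8 at 1.01 ± 0.26 (adjusted p = 0.145) and Mmp14 at 0.29 ± 0.08 (adjusted p = 0.182). At 15 min 0 of the 19938 genes were called, and 1 of the 9 and 1740 of all genes had an unadjusted p under 0.05.

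The rest of the family gave a mixed picture. Of 15 other MMP genes, 14 were tested, and at 24 h 4 of them rose and 5 fell in each genotype. Of all genes, 20.5% in wild type and 21.1% in cub were called higher at 24 h, and 42.8% and 46% were called either way. The interstitial collagenase homologue Mmp1b rose by 2.69 in wild type and 3.53 in cub, and its neighbour Mmp1a by 1.11 and 2.03. Mmp19 rose by 2.20 and 2.40. At 24 h Mmp1a stood at 5.44, 5.79 and 5.76 in wild type and 6.78, 6.60 and 6.57 in cub, and Mmp1b at 6.56, 7.0 and 6.97 and at 7.63, 7.85 and 7.20. No cub array of either gene overlapped a wild-type array at that time. The rise was larger in cub for Mmp1a by 0.91 ± 0.12 (limma adjusted p = 0.000346) and for Mmp1b by 0.84 ± 0.19 (adjusted p = 0.0335). Mmp1b and Mmp1a lie on either side of Mmp3 in the cluster. Of the 10 cluster genes, 3 had a larger 24-h rise in cub, and these were Mmp3, Mmp1a and Mmp1b. Over all genes, 1% were called either way in that test. At 2 h 4 of the 14 other MMP genes were higher in cub, with Mmp19 by 0.95 and Mmp23 by 0.78, and 1 was lower. The share of all genes called higher in cub at 2 h was 3.84%.

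Timp1 went the opposite way to the other inhibitors. Timp2, Timp3, Timp4, Reck and A2m all fell at 24 h in both genotypes, as 5 of 5, where 4462 of 19938 genes were called lower in wild type and 4969 in cub. Timp2 fell by 0.40 in wild type and 0.46 in cub, Timp3 by 0.74 and 0.78, Timp4 by 1.42 and 1.12, Reck, a membrane-anchored inhibitor, by 0.68 and 0.70, and A2m, a protease trap, by 1.24 and 0.57. None was called at 2 h in either genotype. Between genotypes, A2m was lower in cub at 0 h, at 8.97, 8.31 and 8.80 against 9.13, 9.59 and 9.87 in wild type, a difference of -0.84 (limma adjusted p = 0.0139), and it was the only 1 of the 5 called there.

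**Figure D5:**
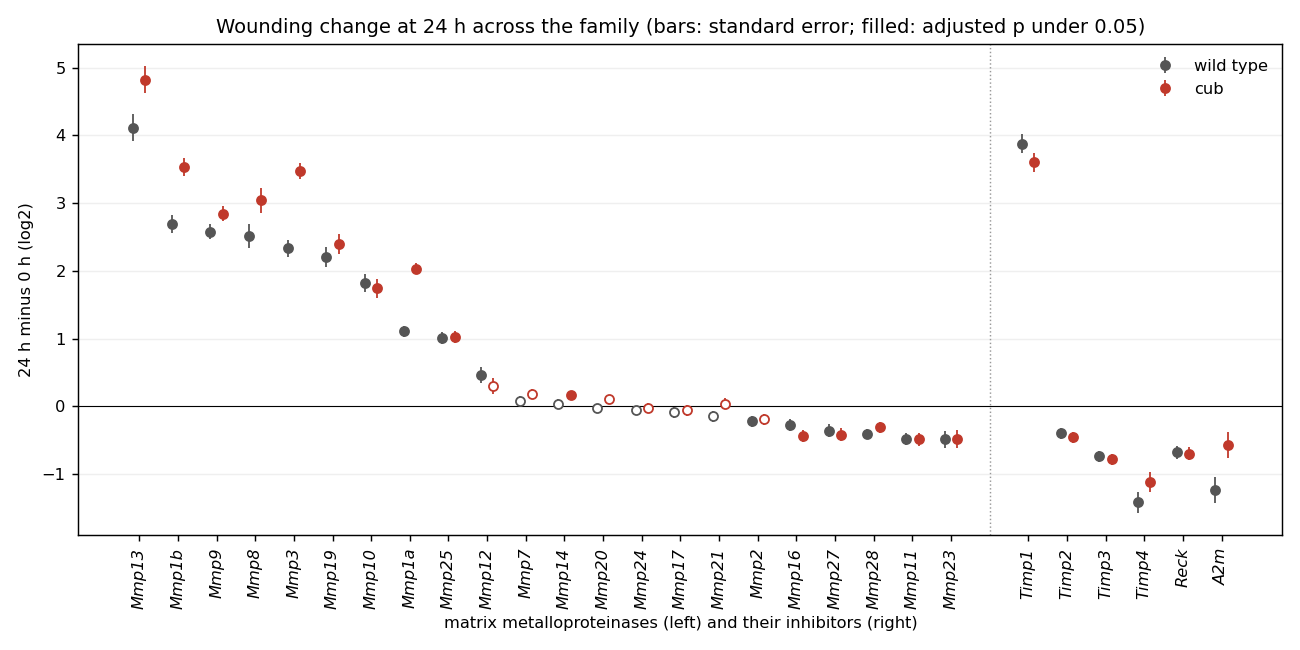
Change from 0 h to 24 h (log2, with standard errors) of 22 MMP genes, in order of the wild-type change, and of 6 inhibitors, in wild type (grey) and cub (red). Filled points have an adjusted p under 0.05. Timp1 (3.88 and 3.60) is the only inhibitor of the 6 that rose, and Mmp13 (4.11 and 4.82) stands highest among the MMPs.

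Genes known to act before and after the MMPs were counted in the same way. The shares of all genes called higher were 3.98% at 2 h in wild type and 7.66% in cub. At 24 h they were 20.5% and 21.1%. The 14 tested genes that are known to induce MMP genes were mostly cytokines and growth factors, but also Ptgs2 and Bsg. Of these 14, 5 rose at 2 h in wild type and 8 in cub, and none fell. Il6 rose by 4.51 and 4.50 and Il1b by 3.15 and 3.99 at 2 h, in wild type and cub. At 24 h 9 rose in wild type and 10 in cub, with Il1b at 5.90 and 6.60 above 0 h. In each genotype 1 of the 14 fell at 24 h, Ereg, an EGF receptor ligand named here after its values were seen, with differences of -0.55 and -1.0. Of 11 AP-1 and ETS factors, 9 rose at 2 h in wild type and 10 in cub, led by Fosb at 3.20 and 2.98 and Fosl1 at 3.13 and 2.84. None fell in wild type and 1 fell in cub, Etv4, named after its values were seen, with a difference of -0.24 (limma adjusted p = 0.0405). Of the 4 genes with an AP-1 match, Mmp3 was called at that time in cub (1.03 ± 0.12, limma adjusted p = 4.68e-06) and not in wild type. Mmp10, Mmp12 and Mmp13 were called in neither genotype. Whether these factors act on the MMP genes here was not tested.

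Of 15 proteases that can activate proMMPs, 4 rose at 24 h in wild type and 3 in cub, near the shares of 20.5% and 21.1% of all genes called higher. Plau, the urokinase plasminogen activator, rose by 0.79 and 1.34, and its rise was larger in cub by 0.56 (limma adjusted p = 0.0135). At 0 h Plau was lower in cub, at -0.42 (adjusted p = 0.00258), and at 24 h it differed by 0.13 (adjusted p = 0.379). At 2 h 6 of the 15 were higher in cub, and 4 of them, Mcpt4, Ctsg, Cma1 and Tpsb2, are granule proteases of mast cells or neutrophils. Of 20 tested MMP substrates, 13 were higher and 1 lower in cub at 2 h, with the proteoglycan Vcan higher by 0.86 and elastin, Eln, by 0.72. These lists share genes with the marker lists, so their counts are not separate results. Among the substrates, Col1a1, Col1a2, Col3a1 and Dcn are also fibroblast markers. Among the proteases, Mcpt4, Cma1 and Tpsb2 are also mast cell markers. Over all genes the share called higher in cub at 2 h was 3.84%. At 24 h Eln fell by 1.14 in wild type and 0.67 in cub, while Tnc, tenascin C of provisional matrix, rose by 2.26 and 2.15. Of 18 ADAMTS proteases 6 rose and 5 fell at 24 h in each genotype, beside 42.8% and 46% of all genes called either way. Adamts4 was already higher at 2 h by 1.96 and 2.37.

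Markers of infiltrating cells and of the wound edge rose beside the MMPs at 24 h. For scale, 4081 of the 19938 genes were called higher and 4462 lower at 24 h in wild type. In cub these counts were 4208 and 4969. Neutrophil markers rose in 9 of 13 in wild type and 11 of 13 in cub, from mean levels of 5.77 and 5.73 at 0 h to 8.59 and 8.92. Macrophage markers rose in 9 of 11 in each genotype, from 7.55 and 7.83 to 9.0 and 9.37. Wound-edge keratinocyte markers, such as Krt6a, rose in 8 of 8 in each, from 8.49 and 8.37 to 11.79 and 11.95. Chondrocyte markers fell in 8 of 10 and 6 of 10, from 7.69 and 7.62 to 7.22 and 7.26, and skeletal muscle markers in 9 and 10 of 10. Their part in the MMP changes was not tested. Of 10 fibroblast markers 7 fell and 2 rose at 24 h in each genotype, with means of 10.51 and 10.21 at 0 h and 24 h in wild type and 10.68 and 10.46 in cub. Adipocyte markers fell in 5 of 6 in wild type and 6 of 6 in cub, from means of 8.74 and 9.23 to 7.80 and 7.94. The part of these cell types was not tested either. The fibroblast and keratinocyte markers of ear skin had mean values of at least 10.21 and 11.69 in every group.

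Likeness across all 23 arrays was taken as Pearson's r with every other gene, as a description over points that share the time course. Mmp8 was most like Csf3r (r = 0.983), Retnlg (0.978) and Cd80 (0.974), the first a receptor and the second a secreted protein of neutrophils. Mmp13 was most like Gsta4 (0.994), Csta3 (0.993) and Cstdc6 (0.992), and Mmp9 was most like Pik3ap1 (0.994), Serpina9 (0.993) and Nppb (0.992). Timp1 was most like Slc39a14 (0.993), Adam8 (0.990) and Gja1 (0.987). Mmp3 was most like Slc7a11 (0.981), the cystine transporter, Mthfd1l (0.980) and Gsr (0.977), which encodes glutathione reductase. Mmp10 was most like Ifi202b and Ddx27 (both 0.964) and Polr1a (0.963). The values were lower for Mmp2 with Olfml3 (0.952), Scarf2 (0.947) and Tnmd (0.941), for Mmp12 with Cnn2 (0.908), Fcer1a (0.906) and Tnfrsf4 (0.898), and for Mmp14 with Twist2 (0.785), Gm16381 (0.775) and Syt13 (0.770).

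Among the 9, Mmp9 and Mmp13 followed each other with r = 0.99 over the 23 arrays, Mmp3 and Mmp10 with 0.96, and Mmp8 and Timp1 with 0.95. Mmp2 ran against Mmp13, with r = -0.75. Once group means were taken off, these values became 0.13, 0.46, -0.19 and -0.37, so most of the shared course lay between groups and not between arrays of a group. Ordered by group mean, the 6 genes that rose in both genotypes had both 24-h groups at the top. For Mmp8 and Timp1, cub at 2 h came next and wild type at 2 h after it, and these 2-h groups overlapped neither each other nor the groups next to them. For Mmp9 and Mmp13, the 6 groups below 24 h overlapped their neighbours throughout.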

How the data were processed

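The authors deposited log2 values made with Affymetrix Expression Console 1.1 and RMA, according to the submitters' processing notes. Summarization level, annotation release and genome build are not given in the sources used here. Of 35556 rows, 21789 carried 1 gene symbol, and the highest-mean row per gene left 19938 genes. RMA smooths low values, so differences near background are understated. A linear model in limma 3.58.1 (R 4.3.3) had 1 mean per genotype and time over all 23 arrays (15 residual and 5.61 prior degrees of freedom). All 16 comparisons were two-sided, and Benjamini-Hochberg adjustment ran over all genes within each comparison. The authors' own R/maanova test was not run. The number of arrays limits the precision.

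The 9 genes were named whatever their values. From 17 other lists, written from general knowledge, up to 4 called genes with the largest differences were named per comparison, or whole lists of at most 6. Each of the 9 was given its 3 most correlated genes. The genes and lists were chosen with earlier results of these data known. Other settings were median-centring, quantile normalization, a filter at a highest group mean of 6, testing every row, array weights, a fit of only the groups compared, replicate numbers as a block, robust moderation with a trend, and leaving out each array. On simulated data for cub against wild type at 2 h over 19938 genes, 46 of 50 genes changed by 0.5 (log2) were recovered, and 50 of 50 at sizes 1, 2 and 4. The simulated noise was normal and independent between genes and arrays. Effects shared by the genes of an array were left out, so these counts do not give the recovery in the real arrays. Promoter windows came from RefSeq.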

Additional observations from a re-analysis of the deposited data

Results flagged for a closer look

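A larger 24-h rise in cub than in wild type, by a test of the difference itself in limma, was found for Mmp3 at 1.14 (adjusted p = 0.00162), for Mmp1a at 0.91 (adjusted p = 0.000346), for Mmp1b at 0.84 (adjusted p = 0.0335) and for Plau at 0.56 (adjusted p = 0.0135). These 4 were listed because they were called, from genes chosen with earlier results of these data known. Their shared direction is therefore not a separate result. Over all genes, this difference of changes was called higher in cub for 51 and lower for 149. Before wounding, Mmp3 and Plau were lower in cub, at -1.0 (adjusted p = 6.82e-05) and -0.42 (adjusted p = 0.00258), and Mmp1a and Mmp1b were not called, at 0.07 and -0.13. Groups of at most 3 arrays could not be tested for single outlying arrays.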

How the results depend on the processing

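Over the 9 transcripts and 16 comparisons, 49 of 144 results were called, and 41 of the 49 were called under every alternative. Of 1514 alternative values for the called results, 1468 stayed called in the same direction, 46 lost the call and 0 reversed. The 24-h genotype count of 2 became 1 when every named row was tested, with the replicate block, with trend and robust moderation and with array weights, and 0 in a fit of only the groups compared. With array weights, 1 of the 9 (Mmp14) was called in the 2-h difference of changes. Leaving out 1 array at a time gave 0 to 2 calls for the genotypes at 24 h, 0 to 1 at 15 min, 2 to 4 at 2 h, and 2 in each case at 0 h. It gave 0 to 1 for cub at 15 min (Mmp3, without cub 15-min replicate 2), 0 to 1 for the 2-h difference of changes (Mmp8, without cub 2-h replicate 2), and 1 to 3 for wild type at 2 h. The counts over all genes, and the percentages made from them, moved more. Between genotypes, leaving out 1 array gave 322 to 1174 genes at 0 h against 1047, 29 (without cub replicate 3) to 2025 (without cub replicate 2) at 15 min against 688, 329 (without cub replicate 1) to 973 at 2 h against 880, and 443 (without cub replicate 3) to 1364 at 24 h against 1133. For the difference of changes it gave 1 to 45 at 2 h against 26 and 83 to 317 at 24 h against 200, both lowest without wild-type 0-h replicate 2, which also gave 983 against 1590 for wild type at 2 h. At 15 min it gave 0 to 27 in wild type against 7 and 0 to 838 in cub against 5. A fit of only the groups compared gave 514, 67 and 258 between genotypes at 0 h, 15 min and 24 h, and 74 for the 24-h difference of changes. Array weights gave 1804 and 1590 between genotypes at 0 h and 2 h, 173 and 437 for the differences of changes at 2 h and 24 h, 2712 and 4112 for wild type and cub at 2 h (against 1590 and 2381), and 389 for wild type at 15 min. The replicate block gave 4 for the 2-h difference of changes.

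No pairing of arrays by equal replicate number was seen. The median correlation of deviations from group means was -0.035 over 77 pairs of equal number and 0.01 over 154 others. Only 4 of 23 arrays correlated best with their own number. With at most 3 arrays per group this check could miss a pairing or a batch. The replicate block left 1 call at 24 h between genotypes, Mmp12, and Mmp8 lost its call. Depth is not defined for arrays, and without detection calls or background signals a low value such as that of Mmp8 or Mmp13 at 0 h cannot be told from background, so fold changes from such levels may be understated.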
